A study of Mus musculus with 12 samples.

Results

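The transcription factors that set up and hold the photoreceptor programme were followed in the retina of 3 mouse models of retinal degeneration (RD). Members were the genes of the deposited tables whose name was Crx, Nrl, Nr2e3, Otx2, Neurod1, Rorb, Mef2d, Thrb, Rxrg or Prdm1, 10 of 32867 genes, and all 10 passed the filter on low counts in every comparison. In Pde6b rd1 retina Prdm1, Otx2, Neurod1, Rorb and Nr2e3 rose above the C3H level and Nrl, Mef2d and Thrb fell. The calls of Nr2e3, Mef2d and Thrb were lost in some of the alternative fits. All 24 rod genes of a list that such factors are known to drive fell there, beside 21.3% of all tested genes. In Pde6b rd10 retina Crx, Nrl, Nr2e3 and Prdm1 fell by more than 1.5-fold. In Prph rd2 retina Nrl and Nr2e3 did so. Prdm1 had the widest range of the 10, from 3.17 FPKM in the lowest Pde6b rd10 sample to 26.8 FPKM in the highest Pde6b rd1 sample.

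RNA of whole retinas was sequenced after removal of ribosomal RNA, with 3 samples in each of 4 groups. Pde6b rd1 mice carry a loss-of-function allele of the rod phosphodiesterase subunit gene Pde6b and were taken at postnatal day 13, and Pde6b rd10 mice carry another allele of the same gene and were taken at day 23. Prph rd2 mice, with a mutation in the outer segment gene Prph2, were taken at day 29, and the 3 C3H samples with wild-type alleles are labelled days 13, 23 and 29, 1 sample each. By the study's methods Pde6b rd10 was on a C57Bl6/J background and the other groups on C3H, whereas the label of Prph rd2 names C57BL6/J. By the study's methods the models were taken at the peak of photoreceptor loss and the C3H samples at matching ages. The alleles are germline and so are carried by every retinal cell type, and the methods state that mice were used irrespective of sex. The labels do not say whether a sample is 1 animal or a pool. Every Pde6b rd10 and Prph rd2 sample held both Xist and Y-linked RNA (values below), as a mix of male and female tissue would. P-values thus measure the spread between these samples, which need not be the spread between animals. Mutation, age and sex cannot be told apart in a comparison with the C3H samples. For Pde6b rd10, and by its label for Prph rd2, this holds for the strain as well.

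OTX2 is a homeodomain protein that commits retinal precursors to the photoreceptor and bipolar fates, and its relative CRX is the main activator of genes for phototransduction and the outer segment. The leucine zipper protein NRL and its target NR2E3, an orphan nuclear receptor, direct precursors to become rods and silence cone genes, with RORB acting upstream of NRL. NEUROD1 and MEF2D work beside CRX in photoreceptors, the nuclear receptors encoded by Thrb and Rxrg pattern the cone opsins, and PRDM1 (BLIMP1) holds young photoreceptors back from the bipolar fate.

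The upstream sequence of the members with the clearest change in a Pde6b model shows which of the letters read by these proteins lie close to each start. In each of the 32851 RefSeq promoters the 250 bases before the start were searched on both strands for TAATCC (bound by OTX2 and CRX), TGCTGA (the core of the NRL element), AGGTCA (the core of nuclear receptor elements) and CAGATG (an E-box of the NEUROD1 type). Promoters were found for 10 of 10 members. The sequences below are the RefSeq upstream windows on GRCm38.p6 that lie outside annotated exons, printed 5′ to 3′ on the minus strand, on which these genes lie, with matches in capitals. The Crx window spans chr7:15879969-15880205, the Nr2e3 window chr9:59950118-59950329 and the Prdm1 window chr10:44458749-44458998.
Crx: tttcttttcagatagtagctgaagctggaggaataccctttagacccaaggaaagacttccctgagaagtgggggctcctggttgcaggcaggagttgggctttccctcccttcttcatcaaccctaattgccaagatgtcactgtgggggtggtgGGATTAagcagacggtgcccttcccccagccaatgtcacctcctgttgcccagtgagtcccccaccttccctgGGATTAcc
Nr2e3: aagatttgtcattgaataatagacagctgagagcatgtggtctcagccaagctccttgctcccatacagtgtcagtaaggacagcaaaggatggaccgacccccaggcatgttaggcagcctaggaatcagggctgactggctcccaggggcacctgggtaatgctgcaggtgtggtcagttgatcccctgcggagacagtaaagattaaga
Prdm1: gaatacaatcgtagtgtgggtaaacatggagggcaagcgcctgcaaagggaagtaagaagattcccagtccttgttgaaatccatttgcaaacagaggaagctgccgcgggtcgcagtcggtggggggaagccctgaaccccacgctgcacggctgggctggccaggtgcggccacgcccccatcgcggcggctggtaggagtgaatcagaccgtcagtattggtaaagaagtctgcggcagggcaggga

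The Crx window held TAATCC at 2 places, read as GGATTA on the strand of the gene, at bases -94 to -89 and -21 to -16 from the start. The RefSeq starts of Crx, Nrl, Nr2e3 and Prdm1 lie inside the gene as GENCODE annotates it, so that other transcripts of these genes start upstream. The 13 bases next to the Crx start and the 38 next to that of Nr2e3 were cut for this reason. Positions are counted from the start and not from the end of the printed sequence. The windows of Nr2e3 and Prdm1 held none of the 4 motifs in these letters. The Nrl window lies within an annotated exon of another transcript and is not printed. It held CAGATG at bases -19 to -14. Over the members, TAATCC lay in a promoter of 3 of 10 genes (Crx, Otx2 and Thrb), TGCTGA of 4, AGGTCA of 2 and CAGATG of 2. Of all 32851 promoters, 6.25% held TAATCC, 16.1% TGCTGA, 14.0% AGGTCA and 14.4% CAGATG. Otx2 has 4 promoters in the table and Rorb, Thrb and Rxrg 2 each, so these genes had more sequence in which to match, and a match in letters is no evidence of binding.

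Between 17049495 and 24755890 reads were counted on genes per sample, so that 3 reads corresponded to 0.121 to 0.176 CPM (counts scaled to the library total). The mutated genes were checked first. Pde6b lay at 56.7 to 57.6 FPKM (fragments scaled to gene length and library total) in Pde6b rd1 against 241 to 245 FPKM in C3H, and Prph2 at 421 to 482 FPKM in Prph rd2 against 885 to 976 FPKM in C3H. Pde6b lay at 169 to 174 FPKM in Pde6b rd10 and at 206 to 218 FPKM in Prph rd2. Prph2 lay at 534 to 567 FPKM in Pde6b rd1 and at 643 to 719 FPKM in Pde6b rd10. A level below C3H was thus not particular to the model with the mutated gene. The summed level of 24 rod genes was 46955 to 47590 CPM in C3H, 26096 to 26332 in Pde6b rd1, 33776 to 34987 in Prph rd2 and 37705 to 38627 in Pde6b rd10. The groups also differed in sex-linked RNA. Xist, which is transcribed from the inactive X of female cells, lay at 0.374 to 0.504 CPM in C3H, 717 to 808 in Pde6b rd10, 1554 to 1957 in Prph rd2 and 3807 to 4003 in Pde6b rd1. The summed CPM of 4 Y-linked genes was 273 to 299 in C3H, 197 to 233 in Pde6b rd10, 109 to 131 in Prph rd2 and 0 in Pde6b rd1. The part of sex in the results on the members was not tested. Sex and mutation cannot be told apart in any comparison between these groups.

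In C3H retina Crx was the most abundant member, at 391 ± 2.14 FPKM (SD, n = 3). Nrl followed at 203 ± 7.74 FPKM, Nr2e3 at 186 ± 2.49 FPKM and Neurod1 at 151 ± 5.06 FPKM. Rorb (89.5 FPKM) and Mef2d (88.5 FPKM) came next, and their samples overlapped, so these neighbours did not differ beyond their spread. Otx2 lay at 46.9 FPKM, Thrb at 14.5, Prdm1 at 13.6 and Rxrg at 2.78, with no overlap between any other neighbours in the order. The order changed in the models. Nr2e3 stood at the third place in C3H, the second in Pde6b rd1 (207 FPKM), the fourth in Prph rd2 (119 FPKM) and the fifth in Pde6b rd10 (81.4 FPKM), where Mef2d (91.8 FPKM) was above it. Neurod1 stood at the second place in Pde6b rd10 and in Prph rd2, and in Prph rd2 its samples overlapped those of Nrl.

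The 3 C3H samples carry different labelled days, yet the members hardly differed among them. The ratio of the highest to the lowest C3H sample was between 1.01 (Crx) and 1.26 (Rxrg), and it stayed under 1.09 for all members but Rxrg. The root mean square difference in log2 CPM over the members was 0.07 to 0.12 between the C3H sample of day 13 and the other C3H samples, and 0.34 to 0.36 between it and the Pde6b rd1 samples of the same day. Over all genes tested the same distances were 0.33 to 0.36 and 0.58 to 0.64. The true ages of the C3H samples were not tested. A comparison with the C3H sample of the same labelled day therefore need not match age.

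**Figure D1:**
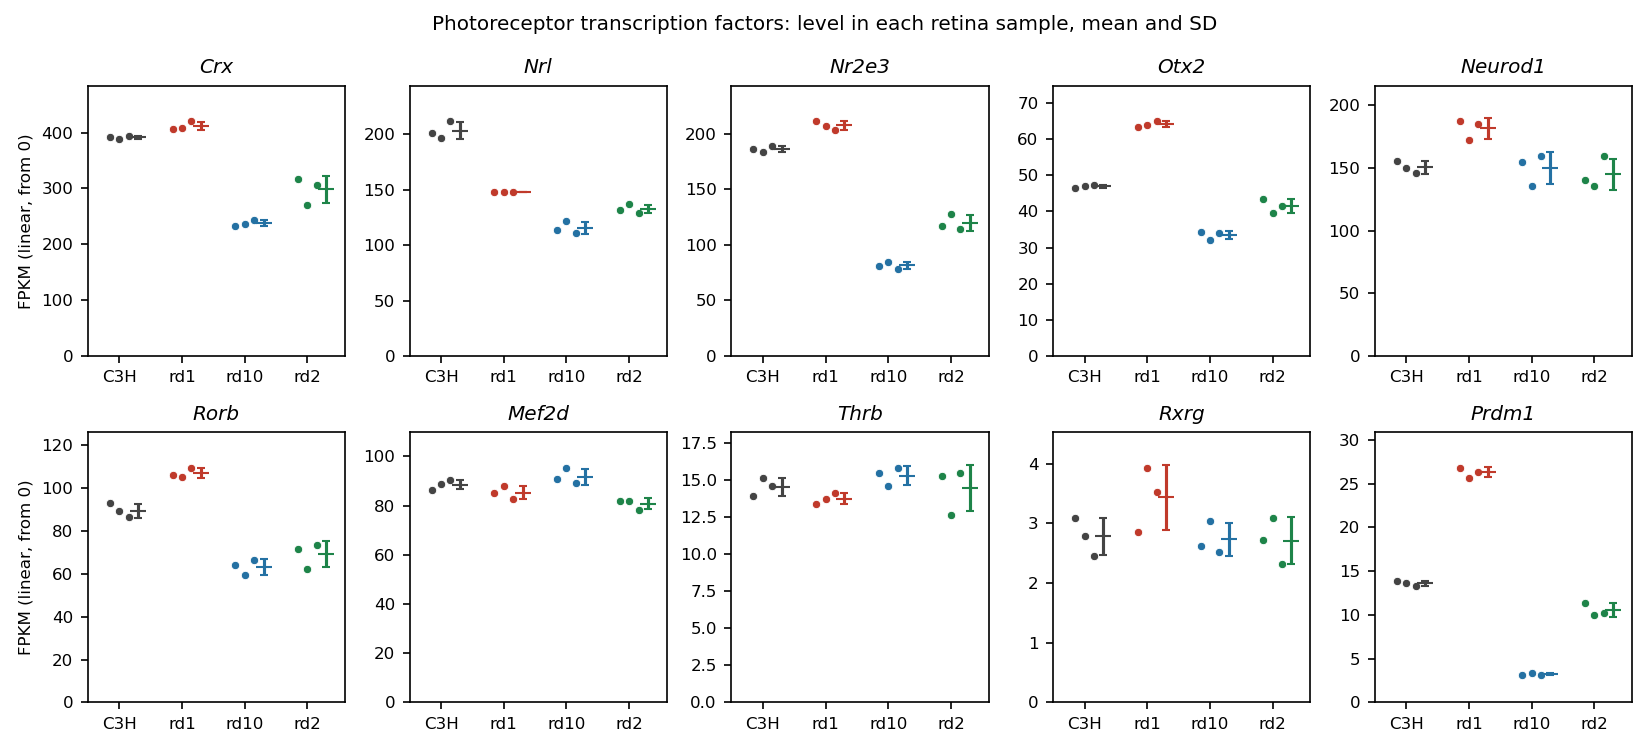
FPKM of each of the 10 members (y axes, linear and starting at 0, with a scale of their own) in the 3 samples of C3H, Pde6b rd1, Pde6b rd10 and Prph rd2. Points are samples, and the bar beside them is the mean with its SD. The 4 groups are separate for Crx, Nrl, Nr2e3, Otx2 and Prdm1, and overlap for Thrb and Rxrg.

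The log2 fold changes that follow are of a model over C3H from edgeR's quasi-likelihood test with TMM scaling, with the standard error and the p-value after Benjamini-Hochberg adjustment over all genes of the comparison. A gene is said to have risen or fallen where this adjusted p was under 0.05, and it is called a DEG where the unadjusted p was under 0.05 and the change at least 1.5-fold. In bulk retina fewer cells of a type and less RNA per cell cannot be told apart. The 3 comparisons share their C3H samples. Gene positions are on GRCm38 as annotated in GENCODE vM21, with Mef2d, Thrb and Rxrg on the plus strand and the other members on the minus strand.

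Otx2 (ENSMUSG00000021848, chr14:48657677-48673819) was measured at 46.5, 47.0 and 47.2 FPKM in C3H and at 63.5, 64.0 and 65.0 FPKM in Pde6b rd1. It lay at 34.4, 32.2 and 33.9 FPKM in Pde6b rd10 and at 43.4, 39.6 and 41.5 FPKM in Prph rd2. Every Pde6b rd1 sample was above, and every sample of the other models below, every C3H sample. Otx2 rose in Pde6b rd1 by 0.38 ± 0.03 (adjusted p = 7e-10), fell in Pde6b rd10 (-0.54 ± 0.04, adjusted p = 3.25e-10) and fell in Prph rd2 (-0.21 ± 0.05, adjusted p = 0.0169), never by 1.5-fold. The last of these calls was lost without any 1 of the 3 C3H samples (adjusted p = 0.0594 to 0.0879). Against the C3H sample of day 29 alone the change in Prph rd2 was -0.22. Otx2 is also expressed in bipolar cells, and 8 bipolar markers summed to 1916 to 1955 CPM in C3H, 2005 to 2030 in Pde6b rd1, 2002 to 2065 in Prph rd2 and 1707 to 1729 in Pde6b rd10, none of them at 0. Of these markers 7 of 8 fell in Pde6b rd10, beside 26.3% of all genes, and the part of bipolar cells in the change of Otx2 was not tested.

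Crx (ENSMUSG00000041578, chr7:15865947-15879968) lay at 392, 389 and 393 FPKM in C3H and at 406, 408 and 420.4 FPKM in Pde6b rd1. The groups did not overlap in FPKM, but after TMM scaling they did, and the log2 fold change was -0.00 ± 0.03 (adjusted p = 0.994, 95% confidence interval -0.05 to 0.05). Its direction in Pde6b rd1 therefore depends on the scaling, and with library totals alone it was 0.07 (adjusted p = 0.0155). Crx was at 233, 237 and 244 FPKM in Pde6b rd10 and fell by 0.77 ± 0.03 on the log2 scale, 1.71-fold lower (adjusted p = 2.19e-14). In Prph rd2 it was at 317, 271 and 306 FPKM and fell by 0.42 ± 0.06 (adjusted p = 0.000183). Samples of both these models lay below all C3H samples.

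Nrl (ENSMUSG00000040632, chr14:55518978-55524981) is the switch of rod fate and fell in all 3 models. It lay at 201, 197 and 212 FPKM in C3H and at 148, 148 and 148 FPKM in Pde6b rd1. In Pde6b rd10 it was at 114, 121 and 111 FPKM and in Prph rd2 at 132, 137 and 129 FPKM. The 4 groups did not overlap, with C3H highest and Pde6b rd10 lowest. Nrl fell by 0.53 ± 0.03 in Pde6b rd1 (adjusted p = 3.31e-13), by 0.87 ± 0.04 in Pde6b rd10 (adjusted p = 1.07e-13) and by 0.65 ± 0.04 in Prph rd2 (adjusted p = 2.69e-07). It was the only member that fell in every model and kept an adjusted p under 0.05 in each alternative with more than 1 C3H sample.

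Nr2e3 (ENSMUSG00000032292, chr9:59942771-59960659) encodes a repressor of cone genes in rods. It lay at 186, 184 and 189 FPKM in C3H and at 211, 207 and 204 FPKM in Pde6b rd1. The log2 fold change was 0.08 ± 0.03 (adjusted p = 0.0165). This call was lost without C3H replicate 1, C3H replicate 2 or Pde6b rd1 replicate 1 (adjusted p = 0.0559, 0.104 and 0.0991). It was also lost in a fit of all 12 samples (adjusted p = 0.291). Against the C3H sample of day 13 alone the change was 0.08. In Pde6b rd10 Nr2e3 was at 81.3, 84.2 and 78.6 FPKM, well under every other sample. It fell there by 1.25 ± 0.04, 2.37-fold lower (adjusted p = 1e-16). In Prph rd2 it was at 116, 127 and 114 FPKM and fell by 0.67 ± 0.05, 1.59-fold lower (adjusted p = 3.3e-07). An antisense gene, Gm7616, overlaps Nr2e3 and had at most 301 reads in a sample.

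Neurod1 (ENSMUSG00000034701, chr2:79452521-79456751), a basic helix-loop-helix factor needed for photoreceptor survival, lay at 156, 150.1 and 146 FPKM in C3H and at 187, 172 and 185 FPKM in Pde6b rd1, with no overlap. It rose there by 0.20 ± 0.03 (adjusted p = 4.12e-05). It was at 155, 136 and 159.7 FPKM in Pde6b rd10 and at 141, 135 and 159 FPKM in Prph rd2, both overlapping C3H. The log2 fold changes were -0.06 ± 0.05 (adjusted p = 0.302) and -0.09 ± 0.06 (adjusted p = 0.414), and the latter passed the test without Prph rd2 replicate 3 (-0.16, adjusted p = 0.0246). Cerkl overlaps Neurod1 on the same strand with up to 5291 reads in a sample, so reads of the shared stretch could not be assigned to either gene with certainty.

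Rorb (ENSMUSG00000036192, chr19:18930605-19111196), the gene of a nuclear receptor upstream of Nrl, lay at 92.9, 89.3 and 86.3 FPKM in C3H and at 106, 105 and 109 FPKM in Pde6b rd1. It was at 64.2, 59.3 and 66.5 FPKM in Pde6b rd10 and at 71.5, 62.1 and 73.6 FPKM in Prph rd2. Each model was separate from C3H, while Pde6b rd10 and Prph rd2 overlapped. Rorb rose by 0.18 ± 0.03 in Pde6b rd1 (adjusted p = 1.36e-05) and fell by 0.55 ± 0.04 in Pde6b rd10 (adjusted p = 1.66e-10) and by 0.41 ± 0.06 in Prph rd2 (adjusted p = 0.000508). Against the C3H sample of day 29 alone the last of these changes was -0.36.

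Mef2d (ENSMUSG00000001419, chr3:88142372-88172086), a partner of CRX at photoreceptor enhancers, was among the steadiest members. Over the 12 samples it ranged from 78.1 to 95.4 FPKM, a ratio of 1.22. It lay at 86.5, 88.6 and 90.2 FPKM in C3H and at 90.9, 95.4 and 89.0 FPKM in Pde6b rd10. It was at 85.2, 87.8 and 82.6 FPKM in Pde6b rd1 and at 82.0, 82.1 and 78.1 FPKM in Prph rd2. In FPKM only the Prph rd2 samples lay outside the range of C3H altogether. After TMM scaling the Pde6b rd1 samples did so too, at 481 to 505 CPM against 532 to 562 CPM in C3H. The log2 fold change was -0.13 ± 0.03 in Pde6b rd1 (adjusted p = 0.00116), -0.16 ± 0.04 in Prph rd2 (adjusted p = 0.0272) and -0.00 ± 0.04 in Pde6b rd10 (adjusted p = 0.97). Against the C3H sample of the same day alone the change was -0.10 in Pde6b rd1 and -0.20 in Prph rd2. With library totals alone the first came to -0.05 (adjusted p = 0.139) and the second to -0.13 (adjusted p = 0.0584), and the second was also lost without any 1 of the 3 C3H samples (adjusted p = 0.0681 to 0.15).

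Thrb (ENSMUSG00000021779, chr14:17660261-18038090) encodes the thyroid hormone receptor through which the green cone opsin is set. It lay at 13.9, 15.1 and 14.6 FPKM in C3H, at 13.4, 13.7 and 14.1 FPKM in Pde6b rd1, at 15.4, 14.6 and 15.8 FPKM in Pde6b rd10 and at 15.2, 12.6 and 15.4 FPKM in Prph rd2. In FPKM all models overlapped C3H. After TMM scaling Pde6b rd1 did not, at 95.4 to 102 CPM against 106 to 116 CPM in C3H. Thrb fell by 0.16 ± 0.04 in Pde6b rd1 (adjusted p = 0.00305), a call that was lost with library totals alone (adjusted p = 0.0933). Against the C3H sample of day 13 alone Thrb changed by -0.10 in Pde6b rd1. It differed from C3H by 0.01 ± 0.05 in Pde6b rd10 (adjusted p = 0.808) and by -0.04 ± 0.07 in Prph rd2 (adjusted p = 0.777).

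Rxrg (ENSMUSG00000015843, chr1:167598384-167639623), a retinoid X receptor that helps to hold back the blue cone opsin, was the least abundant member, with 112 to 170 reads per sample. It lay at 3.09, 2.79 and 2.46 FPKM in C3H, at 2.85, 3.93 and 3.53 FPKM in Pde6b rd1, at 2.62, 3.05 and 2.52 FPKM in Pde6b rd10 and at 2.72, 3.09 and 2.32 FPKM in Prph rd2. All groups overlapped. No change was detectable at this depth. The 95% confidence intervals of the log2 fold change were -0.05 to 0.49 in Pde6b rd1 (adjusted p = 0.176), -0.35 to 0.17 in Pde6b rd10 (adjusted p = 0.585) and -0.36 to 0.22 in Prph rd2 (adjusted p = 0.81). Without Pde6b rd1 replicate 1 Rxrg was higher in that model (0.35, adjusted p = 0.0418).

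Prdm1 (ENSMUSG00000038151, chr10:44437177-44528501), a zinc finger repressor active in newly formed photoreceptors, moved most. It was at 13.9, 13.6 and 13.3 FPKM in C3H, at 26.8, 25.7 and 26.3 FPKM in Pde6b rd1, at 3.19, 3.42 and 3.17 FPKM in Pde6b rd10 and at 11.4, 10.01 and 10.2 FPKM in Prph rd2. The 4 groups were far apart from each other beside their own spread. Prdm1 rose by 0.88 ± 0.04 in Pde6b rd1, 1.83-fold (adjusted p = 3.89e-15). It fell by 2.12 ± 0.06 in Pde6b rd10, 4.35-fold lower (adjusted p = 2.32e-17), and by 0.40 ± 0.06 in Prph rd2 (adjusted p = 0.000634). The C3H sample of day 13 had 13.9 FPKM, about the level of the later C3H samples, while the Pde6b rd1 samples carry the same labelled day. Against that C3H sample alone, assumed to vary like the Pde6b rd1 samples, the log2 fold change of Prdm1 in Pde6b rd1 was 0.84. In Prph rd2 it was -0.37 against the C3H sample of day 29 alone.

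Over the 10 members, 1 was a DEG in Pde6b rd1 (Prdm1, higher), where 15% of all tested genes were DEGs and 8.98% were DEGs that were higher. At an adjusted p under 0.05, 5 members rose there (Nr2e3, Otx2, Neurod1, Rorb and Prdm1), beside 21.9% of all genes, 3 fell (Nrl, Mef2d and Thrb), beside 21.3% of all genes, and 2 did not pass. In Pde6b rd10 there were 4 DEGs (Crx, Nrl, Nr2e3 and Prdm1), all lower, beside 23.9% of all genes in either direction and 8.08% that were lower. Otx2 and Rorb also fell at the adjusted p, which made 6 of 10 members beside 26.3% of all genes, and none rose. In Prph rd2 there were 2 DEGs (Nrl and Nr2e3), both lower, beside 4.57% of all genes in either direction and 1.89% that were lower. With Crx, Otx2, Rorb, Mef2d and Prdm1, 7 of 10 members fell there at the adjusted p, beside 5.17% of all genes, and none rose. Against the C3H sample of day 29 alone the changes were -0.43 (Crx), -0.71 (Nrl), -0.69 (Nr2e3), -0.22 (Otx2), -0.36 (Rorb), -0.20 (Mef2d) and -0.37 (Prdm1). A fit with 1 C3H sample cannot measure the spread of C3H, so only its changes are given. The share of members that were DEGs was thus near that of all genes in Pde6b rd1 and above it in the other models, as a description of a short list. The median log2 fold change of the members was 0.13 in Pde6b rd1, -0.30 in Prph rd2 and -0.55 in Pde6b rd10, while the median over all tested genes was -0.01, -0.00 and -0.00.

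**Figure D2:**
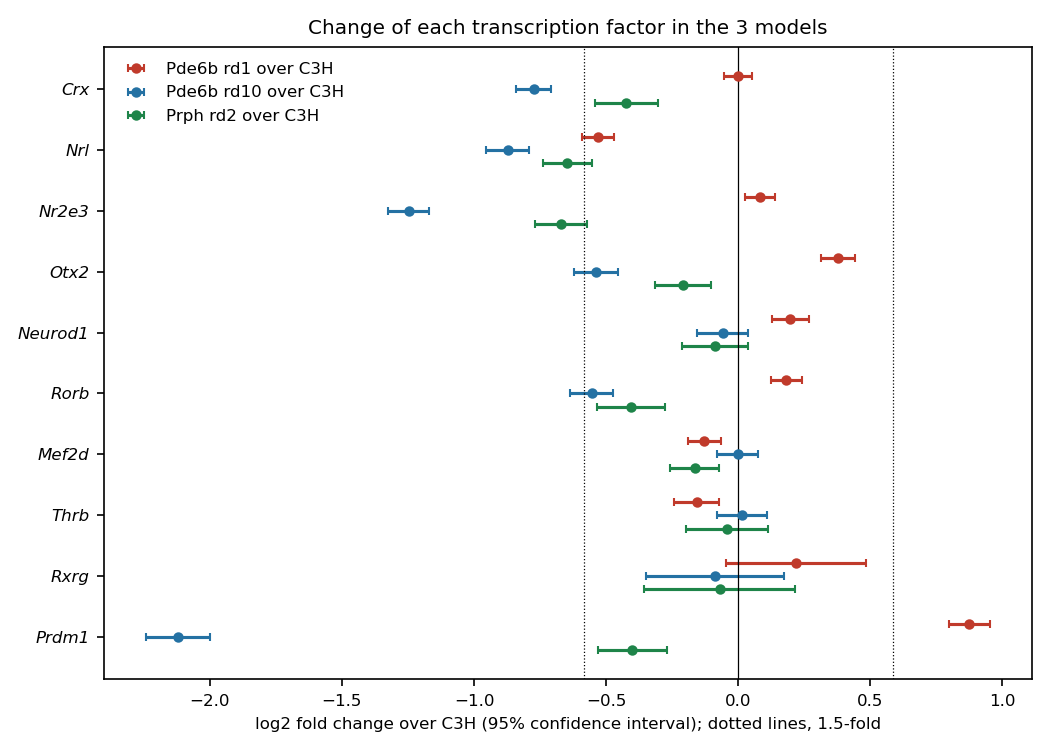
Log2 fold change over C3H (x axis) of each member (y axis) in Pde6b rd1 (red), Pde6b rd10 (blue) and Prph rd2 (green), with 95% confidence intervals from edgeR and dotted lines at 1.5-fold. Nr2e3, Otx2, Rorb and Prdm1 lie to the right of 0 in Pde6b rd1 and to the left in the other models. Crx lies at 0 in Pde6b rd1, where its direction depends on the scaling, Nrl lies to the left in all 3, and the intervals of Rxrg cross 0 in all 3.

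The models were then compared with each other, in a fit of all 12 samples. Between Pde6b rd10 and Pde6b rd1, which carry alleles of the same gene, 5 members were DEGs and all were lower in Pde6b rd10, beside 28.8% of all genes in either direction and 11.2% that were lower. These were Prdm1 (-2.97 ± 0.06, 7.83-fold lower, adjusted p = 6.36e-19), Nr2e3 (-1.30 ± 0.04, adjusted p = 6.87e-16), Otx2 (-0.89 ± 0.04, adjusted p = 5.81e-13), Crx (-0.75 ± 0.05, adjusted p = 2.9e-11) and Rorb (-0.71 ± 0.05, adjusted p = 6.38e-10). Nrl (-0.32 ± 0.04, adjusted p = 1.17e-06) and Neurod1 (-0.23 ± 0.06, adjusted p = 0.00287) were also lower in Pde6b rd10, by less than 1.5-fold. Mef2d (0.15 ± 0.04, adjusted p = 0.00233) and Thrb (0.20 ± 0.06, adjusted p = 0.013) were higher in Pde6b rd10, by less than 1.5-fold, and the call of Thrb was lost without Pde6b rd1 replicate 1 (adjusted p = 0.0611). Between Prph rd2 and Pde6b rd1, Prdm1 (-1.25 ± 0.05, adjusted p = 1.77e-13) and Nr2e3 (-0.73 ± 0.04, adjusted p = 2.2e-11) were DEGs and lower in Prph rd2, beside 16.9% of all genes in either direction and 8.66% that were lower. Otx2 and Rorb were lower as well, 1.48-fold each (adjusted p = 2.17e-09 and 5.34e-08), so the count of 2 rests on the 1.5-fold limit, and without Prph rd2 replicate 1 or with library totals alone it was 4. Crx (-0.40 ± 0.05, adjusted p = 7.63e-07) and Neurod1 (-0.26 ± 0.06, adjusted p = 0.00174) were also lower in Prph rd2. Between Prph rd2 and Pde6b rd10 Prdm1 alone was a DEG, 3.29-fold higher in Prph rd2 (1.72 ± 0.06, adjusted p = 5.81e-15), beside 19.7% of all genes in either direction and 6.16% that were higher. Nr2e3, 1.49-fold higher in Prph rd2 (adjusted p = 5.02e-10), lay just under the limit, and passed it without Prph rd2 replicate 1, Prph rd2 replicate 3 or Pde6b rd10 replicate 2, when the count was 2. Crx (0.35 ± 0.05, adjusted p = 3.55e-06), Otx2 (0.33 ± 0.04, adjusted p = 3.03e-06) and Nrl (0.22 ± 0.04, adjusted p = 0.000117) were also higher in Prph rd2 and Mef2d (-0.17 ± 0.04, adjusted p = 0.00155) was lower. Rorb (0.15 ± 0.05, adjusted p = 0.0339) lost its call without Prph rd2 replicate 1 or 3 or Pde6b rd10 replicate 1 or 2 (adjusted p = 0.0623 to 0.166). Age, mutation and sex, and for Pde6b rd10 and by its label Prph rd2 also the strain, cannot be told apart here.

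Ratios between members within a sample do not depend on how libraries are scaled. Nr2e3 and Nrl are neighbours in 1 pathway, and their log2 ratio in FPKM was -0.13 ± 0.04 (SD, n = 3) in C3H, 0.49 ± 0.03 in Pde6b rd1, -0.15 ± 0.04 in Prph rd2 and -0.50 ± 0.02 in Pde6b rd10. Every Pde6b rd1 sample was above and every Pde6b rd10 sample below C3H, whereas Prph rd2 overlapped C3H. The ratio of Nr2e3 to Nrl was thus 1.53 times that of C3H in Pde6b rd1 and 0.771 times in Pde6b rd10. The log2 ratio of Nrl to Crx was -0.95 ± 0.05 in C3H and -1.48 ± 0.03 in Pde6b rd1, without overlap, and overlapped C3H in Pde6b rd10 (-1.04 ± 0.09) and Prph rd2 (-1.16 ± 0.16). Otx2 stood higher beside Crx in all models. Its log2 ratio to Crx was -3.06 ± 0.01 in C3H, -2.68 ± 0.01 in Pde6b rd1, -2.84 ± 0.06 in Prph rd2 and -2.83 ± 0.06 in Pde6b rd10, and no model overlapped C3H. The cone factor Rxrg beside Crx was separate from C3H in Pde6b rd10, at -6.45 ± 0.16 against -7.14 ± 0.17. The ratio of Thrb to Rxrg overlapped C3H in all models. An exact permutation test of 3 against 3 samples cannot go below a two-sided p of 0.10. That value was reached in 7 of 15 tests, and after adjustment over the 15 it was 0.214.

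**Figure D3:**
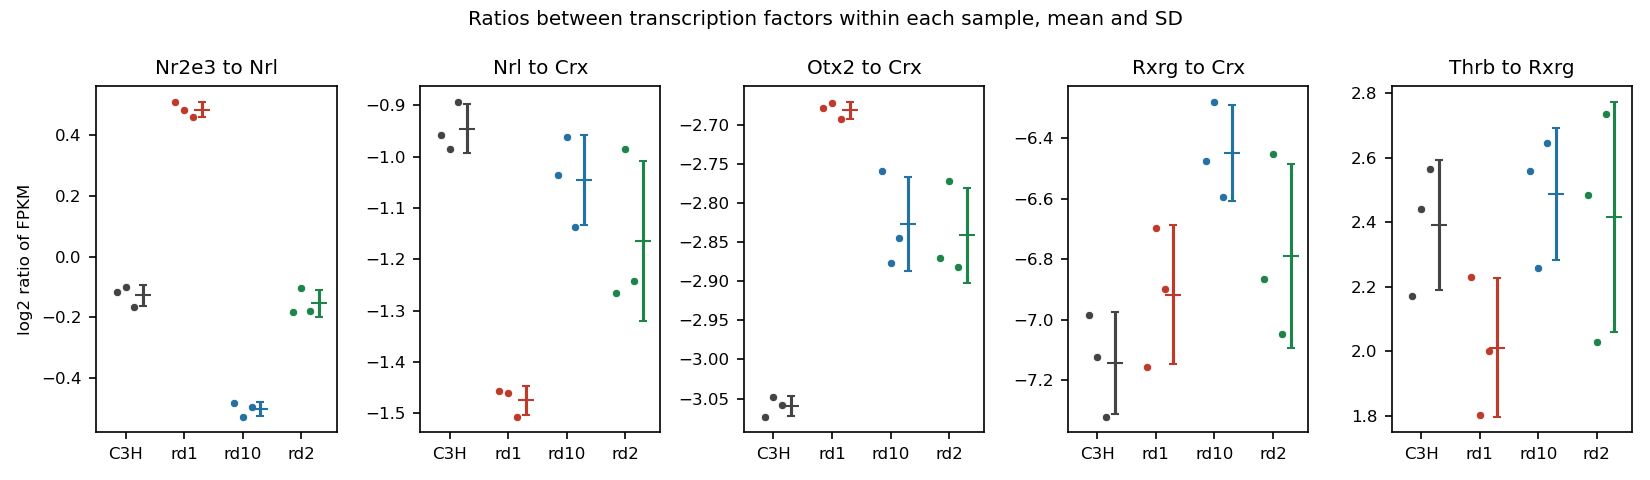
Log2 ratio of the FPKM of 2 members within a sample (y axes, each with a scale of its own) in C3H, Pde6b rd1, Pde6b rd10 and Prph rd2. Points are samples, and the bar beside them is the mean with its SD. The ratio of Nr2e3 to Nrl is near 0.49 in Pde6b rd1 and near -0.50 in Pde6b rd10, on either side of C3H at -0.13.

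The members were then set beside genes of rods and cones that they are known to regulate. In Pde6b rd1, 19 of 24 rod genes were DEGs and all were lower, with a median log2 fold change of -0.83, while the median of the members was 0.13. Guca1b (-2.74), which encodes a guanylate cyclase activator, Pde6b (-2.16) and Gnat1 (-1.96), the rod transducin subunit, were among them. Gnat1 lay at 277 to 285 FPKM in Pde6b rd1 against 1027 to 1079 in C3H, while Crx lay at 406 to 420.4 FPKM. In Pde6b rd10, 8 of 24 rod genes were DEGs and lower (median -0.48, members -0.55). Sag (-0.93) and Rcvrn (-0.92), which encode rod arrestin and recoverin, were among them. At the adjusted p, 22 of the 24 fell there, beside 26.3% of all genes, and 2 did not pass. Gnat1 (-0.06, adjusted p = 0.137) was 1 of these 2. In Prph rd2, 5 of 24 were DEGs and lower (median -0.36, members -0.30), with Prph2 (-1.06) and Fscn2 (-1.06) among them. No rod gene was a DEG that was higher in any model.

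Cone genes, which NR2E3 and NRL are known to silence in rods, differed between the models as well. In Pde6b rd1, 6 of 14 were DEGs and lower and 1 was higher (median -0.47). Opn1mw, the green opsin (-1.50), Pde6h (-1.50) and Gnat2 (-0.76) were lower and Gngt2 (0.95) was higher. In Pde6b rd10, 6 of 14 were higher and 2 lower (median 0.40). There Pde6h rose from 2.04 to 2.14 FPKM in C3H to 11.2 to 11.7 FPKM (log2 fold change 2.39), Pde6c from 8.40 to 9.02 to 30.1 to 31.2 FPKM (1.75) and Slc24a2 from 6.73 to 6.90 to 14.9 to 17.0 FPKM (1.17), while Gulp1 (-1.05) and Gngt2 (-0.95) fell. Neither Thrb nor Rxrg passed the test in Pde6b rd10. In Prph rd2 none of the 14 was a DEG (median 0.01), and 4 passed the adjusted p by less than 1.5-fold, 3 higher and 1 lower. Of 18310 genes tested in Pde6b rd1, 1104 were DEGs and lower and 1645 higher. Of 18704 tested in Pde6b rd10, 1511 were lower and 2968 higher, and in Prph rd2 4.57% were DEGs in either direction.

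Of 26 other regulators of photoreceptor genes, 4 were DEGs that were lower and 1 was higher in Pde6b rd1 (median 0.04), 3 were lower and 3 higher in Pde6b rd10 (median -0.19), and 3 were lower in Prph rd2 (median -0.08). In Pde6b rd1, Mef2c (-1.59), Esrrb (-1.11), Bhlhe40 (-0.92) and Nr1d1 (-0.84) were DEGs and lower. In Pde6b rd10, the cofactor gene Pias3 (-1.04) and Samd7 (-0.77) were lower, and Ikzf1 (1.95), Bhlhe40 (1.28) and Mef2c (0.80) were higher. In Prph rd2, Esrrb (-1.14), Mef2c (-0.73) and Samd11 (-0.69) were lower. Esrrb, an orphan receptor needed for rod survival, lay at 64.7 to 65.9 FPKM in C3H, 31.4 to 32.4 in Pde6b rd1, 29.0 to 31.1 in Prph rd2 and 46.5 to 51.4 in Pde6b rd10. It was thus lower in Pde6b rd1, where Otx2 and Rorb were higher. Ikzf1 is also a gene of immune cells, and 9 microglial markers summed to 195 to 222 CPM in Pde6b rd10 against 60.8 to 63.1 in C3H, 63.4 to 67.8 in Pde6b rd1 and 51.0 to 53.8 in Prph rd2, with none at 0 in a group. Of these markers 8 of 9 were DEGs and higher in Pde6b rd10, beside 2968 of 18704 tested genes. The part of microglia in the changes of that model was not tested. The summed level of 8 Müller glia markers was 1666 to 1704 CPM in Pde6b rd1, 3059 to 3123 in C3H, 3291 to 3473 in Prph rd2 and 3535 to 3759 in Pde6b rd10. In Pde6b rd10, 5 of the 8 rose and 3 fell, beside 26.3% of all genes that fell. The part of Müller glia in the results was not tested.

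**Figure D4:**
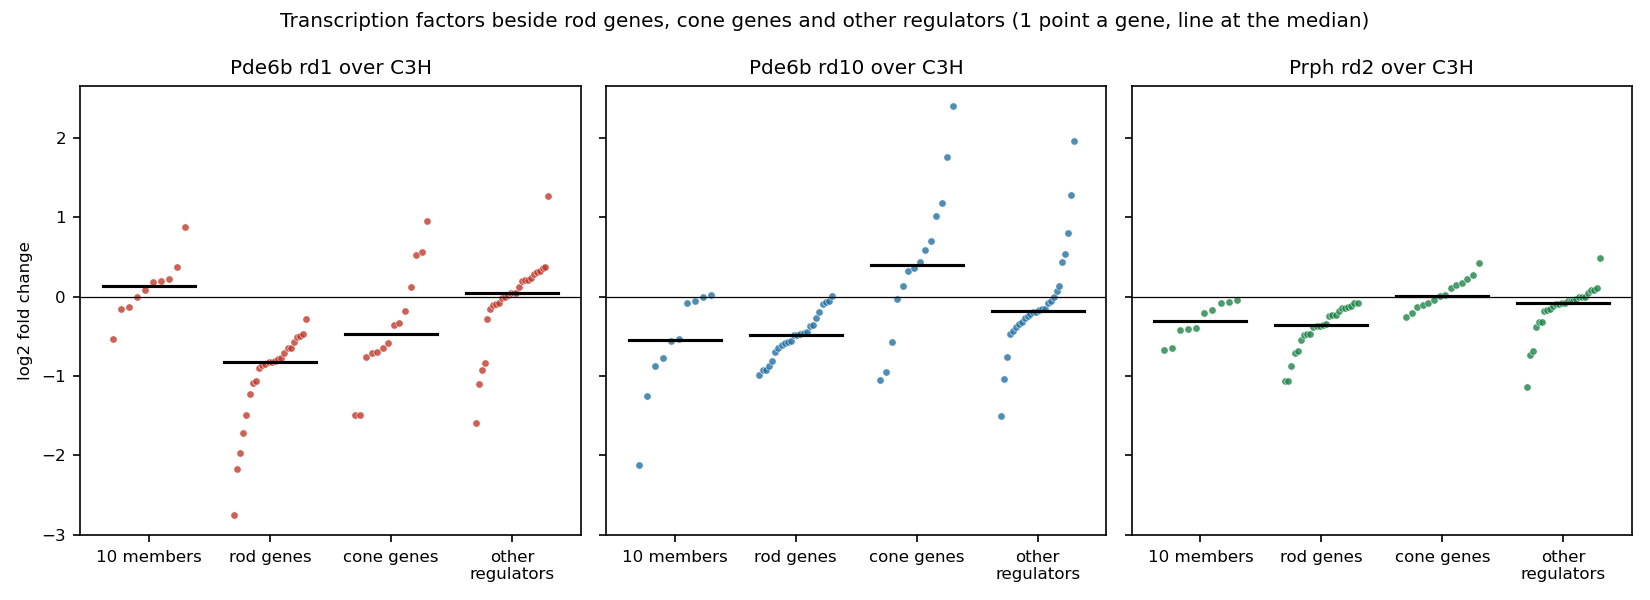
Log2 fold change over C3H (y axis) of the 10 members, 24 rod genes, 14 cone genes and 26 other regulators (x axis), 1 panel a model. Each point is a gene and the black line is the median of its list. In Pde6b rd1 the members lie about 0 (median 0.13) and the rod genes below it (median -0.83), and in Pde6b rd10 and Prph rd2 both lists lie below 0 on the median.

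The genes whose pattern over the 12 samples was nearest to a member were found by the root mean square difference of centred log2 CPM among 19616 tested genes. Crx lay nearest to Gng4 (0.05), Nol4l (0.07) and Cerkl (0.07), beside a standard deviation of Crx itself of 0.32. Nrl was nearest to Nxnl2 (0.09), a gene related to that of the rod-derived cone viability factor, and Nr2e3 to Ablim3 (0.08). Otx2 was nearest to Marcks (0.04) and Isl1 (0.06), and Isl1, a gene of bipolar and other inner retinal neurons, was also the second nearest to Rorb (0.08) after Sec14l2 (0.08). Prdm1 had no gene as near, with Nnat at 0.19, Slc27a2 at 0.20 and Adamts16 at 0.20 beside its own standard deviation of 1.08. The samples of a group share age and genotype, so these distances describe the 4 groups more than 12 independent points.

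Circular RNAs (circRNAs), counted by reads across back-splice junctions, are another readout of the same genes. Of the members, 4 hosted circRNAs, Mef2d with 7, Rorb with 4, Thrb with 4 and Nrl with 1. Samples held 4 to 13 junction reads on Rorb, 1 to 12 on Mef2d and 0 to 4 on Thrb, of 9819 to 25009 junction reads in all. The most abundant was the Rorb circRNA at chr19:18977580-18988116, with 2, 6 and 4 reads in C3H, 4, 6 and 5 in Pde6b rd1, 0, 5 and 7 in Prph rd2 and 5, 0 and 3 in Pde6b rd10. The groups overlapped. That of Mef2d at chr3:88155677-88163087 had 13 reads over all samples, that of Thrb at chr14:17963060-17963321 had 8, and the Nrl circRNA at chr14:55522087-55524214 had 6 reads, all in Pde6b rd10 replicate 1. With enough reads to be tested were 3 of these circRNAs in Pde6b rd1, 2 in Prph rd2 and 3 in Pde6b rd10. By edgeR's quasi-likelihood test 0 of them were called at an unadjusted p under 0.05 and 2-fold, the lowest unadjusted p among the members' circRNAs, from a fit across all circRNAs, being 0.306, and limma on TPM also called 0. Of all circRNAs tested, 6.37% were called in Pde6b rd1, 3.44% in Prph rd2 and 11.8% in Pde6b rd10. At so few reads per sample most changes of this size could go undetected.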

How the data were processed

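The deposited tables cover 12 mouse retina samples, with groups taken from the labels. For the gene table, the authors mapped reads of directional libraries to GRCm38 and counted them with HTSeq v0.11.2. Whether counting used the strand is not given in the sources used here. Otx2 (with Otx2os1), Nr2e3 and Mef2d have antisense neighbours. The FPKM table was derived by the authors from the gene counts. Back-splice reads were found by the authors with TopHat2 v2.1.1 and CIRCexplorer and deposited as junction counts and as TPM. Depth was 17049495 to 24755890 reads, and floors cover counting error only.

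All genes were tested in R 4.3.3 with edgeR 4.0.16 (TMM, its filter on low counts, quasi-likelihood test), a model against C3H in a fit of 6 samples and models with each other by contrasts in a fit of 12. P-values were adjusted by Benjamini-Hochberg. A circRNA was tested with 2 or more reads in 3 or more samples. CPM for the nearest genes used a prior count of 2. The steps were tested on simulated data. Alternatives were DESeq2 1.42.0, RLE size factors, no filter, limma 3.58.1 on log2(FPKM + 1), an adjusted threshold, other sets of samples, each replicate left out and the replicate number as a block, and, added after the data were seen, library totals only.

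Members and gene lists were chosen with earlier results of these data known. Named were all members, for each list, comparison and direction up to 3 DEGs with the smallest p, the genes nearest in pattern to a member (the first 1 to 3 for 6 members), and the most abundant circRNA per host. Bhlhe40 in Pde6b rd1, and the levels of Gnat1 and Esrrb, were added after their values were seen. A few listed genes that this rule would name are not reported here. Promoters were those of the 4 members with the smallest p among those changed 1.5-fold at an adjusted p under 0.05 in a Pde6b model. Gene positions are from GENCODE vM21 and promoters from RefSeq. Proteins were not used here. Other tables and figures were made with Python 3.11.15, numpy 2.4.6, pandas 2.3.3 and matplotlib 3.10.9.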

Additional observations from a re-analysis of the deposited data

Results flagged for a closer look

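A member was listed here where the direct comparison of 2 models found a DEG, that is, where the changes in the models differed from each other. Between Pde6b rd10 and Pde6b rd1 these were Crx (log2 difference -0.75), Nr2e3 (-1.30), Otx2 (-0.89), Rorb (-0.71) and Prdm1 (-2.97). Between Prph rd2 and Pde6b rd1 they were Nr2e3 (-0.73) and Prdm1 (-1.25), and between Prph rd2 and Pde6b rd10 Prdm1 (1.72). Of these, Crx was at the C3H level in Pde6b rd1 and below it in Pde6b rd10, and Otx2, Rorb and Prdm1 were past the adjusted threshold in opposite directions in both. Prdm1 differed in all 3 comparisons, and the 3 samples of each model were separate from those of the others. The models differ in age and in sex-linked RNA, and Pde6b rd10 by the methods and Prph rd2 by its label also in strain. The part of these differences was not tested. All groups held 3 samples, so no group was searched for single outlying samples.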

How the results depend on the processing

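Of 249 alternative values of the counts and lists, 242 stayed within 1.5 times the reported one. Of 810 alternative log2 fold changes of members, 729 kept direction and side of the adjusted threshold, 39 lost it, 11 passed it and 31 turned in sign. These include fits with 1 C3H sample, whose p-values cannot measure the spread of C3H. All 105 alternative ratios stayed within 1 SD, but these alternatives could not have moved them further. Counts in place of FPKM shift both groups alike, and leaving out 1 of 3 samples moves a mean by less than 1 SD. They are therefore no check of the ratios. The count of member DEGs between Prph rd2 and Pde6b rd1 was 2, and 4 with library totals only and with limma on log2(FPKM + 1). Between Prph rd2 and Pde6b rd10 it was 1, and 2 without the filter on low counts. With each replicate left out these counts were 2 to 4 and 1 to 2. Since Otx2, Rorb and Nr2e3 lay close to 1.5-fold there, the limit decides these counts.

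Signs turned only where the reported change was not past the threshold. Crx in Pde6b rd1 was 0.00072 with DESeq2, 0.0027 with RLE size factors, 0.0022 without the filter, 0.0734 with library totals only and 0.0728 with limma. Mef2d in Pde6b rd10 was 0.053 with library totals only and 0.052 with limma. Against the C3H sample of the same day, Thrb was -0.044 in Pde6b rd10 and Rxrg 0.10 in Prph rd2. Rxrg between Prph rd2 and Pde6b rd10 was -0.0071 with library totals only and -0.010 with limma. With each replicate left out, the lowest and highest values against C3H were -0.021 and 0.013 (Crx in Pde6b rd1), -0.10 and 0.0073 (Neurod1 in Pde6b rd10), -0.032 and 0.025 (Mef2d in Pde6b rd10), -0.021 and 0.045 (Thrb in Pde6b rd10), -0.10 and 0.047 (Thrb in Prph rd2) and -0.17 and 0.028 (Rxrg in Prph rd2). They were -0.029 and 0.0086 for Mef2d between Prph rd2 and Pde6b rd1. Between Prph rd2 and Pde6b rd10 they were -0.10 and 0.022 (Neurod1), -0.11 and 0.030 (Thrb) and -0.087 and 0.11 (Rxrg). The cause was not tested.

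In Prph rd2, limma lost Crx (adjusted p = 0.103), Rorb (0.103), Otx2 (0.108), Mef2d (0.133) and Prdm1 (0.0595). In Pde6b rd1, limma lost Mef2d (0.322) and Thrb (0.249). Against the C3H sample of day 13 alone the changes in Pde6b rd1 were -0.10 (Mef2d), 0.08 (Nr2e3) and -0.10 (Thrb). Over all genes, limma called 1158, 2169 and 161 DEGs in Pde6b rd1, Pde6b rd10 and Prph rd2, against 2749, 4479 and 850. Prph rd2 had 1300 without the filter, 384 at an adjusted threshold and 1435 without Prph rd2 replicate 2, when the share that was higher went from 58.6% to 44.7%.

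The replicate numbers did not pair the samples (r of deviations -0.07 to 0.13, 1 of 9 pairs over 0.1), though in Pde6b rd1 each sample correlated best with its own number, a hint from the data only. With the replicate number as a block the counts of member DEGs were unchanged (1 in Pde6b rd1, 4 in Pde6b rd10, 2 in Prph rd2), and Nr2e3 in Pde6b rd1 (adjusted p = 0.0502), Otx2 (0.0538) and Mef2d (0.109) in Prph rd2 no longer passed. Depth limits Rxrg, with 112 to 170 reads per sample, and the circRNAs.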
